A study of Mus musculus with 6 samples.

Results

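The enteroendocrine lineage transcription factors described here are Neurog3, Neurod1, Insm1, Nkx2-2, Pax4, Fev, Rfx6, Pax6 and Isl1. They were taken by symbol from the deposited counts, where all 9 are among the 19616 genes listed, and all 9 passed the filter on low counts that left 15618 genes for testing. RNA was sequenced from jejunal intestinal epithelial cells (IEC), enriched with EDTA, of 3-month-old mice of a mixed C57BL/6J, 129SV and CD1 background. The 3 control mice (C1, C3 and C3-3) were wild-type, and the 3 Hdac1/2-deleted mice (H1, H5 and H9) were villin-Cre Hdac1-/-; Hdac2-/-, with 1 library per mouse. Villin-Cre acts across the intestinal epithelium, so that the deletion is not specific to endocrine cells, which are a small share of the cells sequenced. Total counts were 65902344, 62311942 and 58017009 in C1, C3 and C3-3 and 65230566, 36111035 and 60418894 in H1, H5 and H9.

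Enteroendocrine cells are scattered hormone-secreting cells of the gut epithelium that arise from crypt progenitors. A secretory progenitor that escapes Notch signalling and briefly makes Neurog3 enters the endocrine lineage, and the other factors act after Neurog3, some in all endocrine cells and some in the choice between hormones. Histone deacetylases 1 and 2 are the catalytic subunits of corepressor complexes, including the CoREST complex, which the endocrine factor Insm1 recruits.

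Hdac1 was measured at 39.1, 34.5 and 48.9 CPM (counts relative to the TMM-adjusted library size) in C1, C3 and C3-3 and at 3.97, 2.53 and 4.81 CPM in H1, H5 and H9. It was decreased, with a log2 fold change of -3.43 and a standard error (SE) of 0.26 (adjusted p = 2.9e-05, from edgeR's quasi-likelihood test and Benjamini-Hochberg's method). Hdac2 was measured at 27.7 ± 4.72 CPM in control mice and 24.5 ± 2.70 CPM in Hdac1/2-deleted mice (SD, n = 3 each), and its log2 fold change of -0.18 had a 95% interval from -0.56 to 0.21. The counts are totals over each gene, so that transcripts without a deleted exon are still counted, and the Hdac2 total does not check that deletion. The group is called Hdac1/2-deleted after its label.

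None of the 9 factors was called changed by edgeR's quasi-likelihood test. Calls needed both an adjusted p up to 0.05 and a 2-fold difference, and under that rule 0 of 9 factors were increased and 0 of 9 decreased, against 12.4% and 12.7% of the 15618 genes tested. At an unadjusted p under 0.05 the count was also 0 of 9, against 49.6% of genes tested, and DESeq2 called 0 of 9 as well. The median log2 fold change was -0.14 over the 9 factors and -0.01 over all genes tested. It was negative for 8 of 9 factors and for 50.4% of genes tested, and with libraries scaled by their totals alone for 4 of 9 factors and 41.3% of genes tested. Both values depend on single mice: 6 of 9 were negative without H9 and 5 of 9 without C1, and the median of the 9 ran from -0.40 without H1 to -0.01 without C1. A p above the threshold does not show equal levels, and in whole IEC fewer cells of a type and less RNA per cell cannot be told apart.

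**Figure D1:**
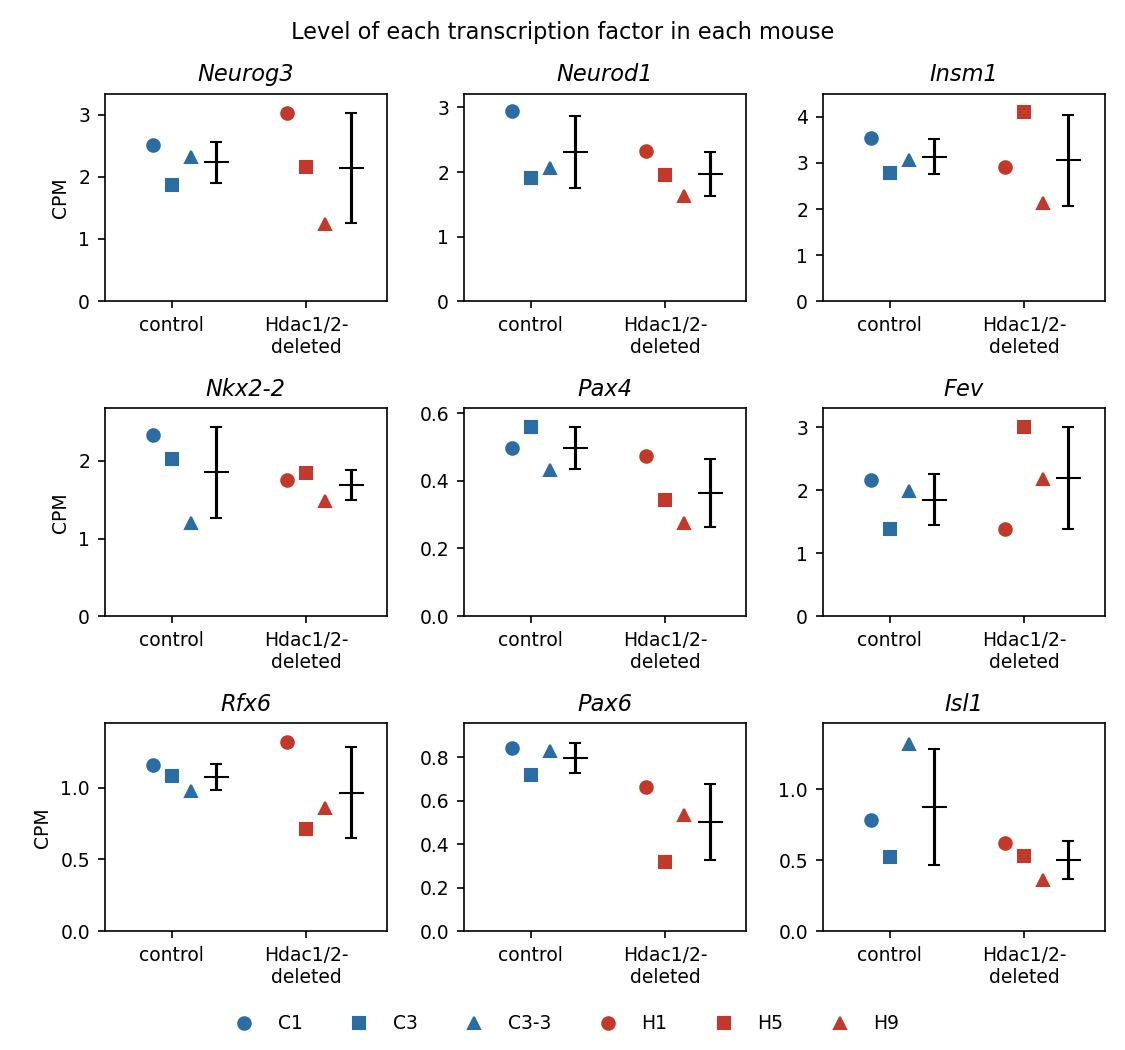
Level of each factor in CPM (vertical axes, from 0) in the 3 control mice (blue) and the 3 Hdac1/2-deleted mice (red), with a symbol for each mouse and black bars for mean ± SD. The groups overlap for every factor but Pax6, whose Hdac1/2-deleted mice lie between 0.316 and 0.661 CPM and control mice between 0.720 and 0.845 CPM.

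The lineage begins with Neurog3, a basic helix-loop-helix (bHLH) factor without which gut endocrine cells do not form. Neurog3 (ENSMUSG00000044312, chr10:62133090-62134763 of GRCm38) was measured at 2.51, 1.87 and 2.31 CPM in C1, C3 and C3-3 and at 3.02, 2.16 and 1.24 CPM in H1, H5 and H9. The highest and the lowest level both came from Hdac1/2-deleted mice, and H5 lay inside the control range. The coefficient of variation was 41.8% among Hdac1/2-deleted mice and 14.6% among control mice. Control mice varied more for Neurod1 (24.1% against 17.7%), Nkx2-2 (31.4% against 11.2%) and Isl1 (46.3% against 26.6%), and Hdac1/2-deleted mice for the other factors. Neurog3 had 76 to 224 counts per library, for which counting error alone gives 11.5% to 6.68%. Its log2 fold change was -0.06 with an SE of 0.36 and an adjusted p of 0.91, and the 95% interval ran from -0.88 to 0.76.

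Neurod1 is a related bHLH factor that Neurog3 activates and that secretin and cholecystokinin cells require. Neurod1 (ENSMUSG00000034701, chr2:79452521-79456751) stood at 2.94, 1.91 and 2.07 CPM in C1, C3 and C3-3 and at 2.32, 1.95 and 1.63 CPM in H1, H5 and H9. C1 was highest and H9 lowest, and the 4 other mice lay close together between 1.91 and 2.32 CPM. Its log2 fold change was -0.23 (SE 0.30, adjusted p = 0.57), with an interval from -0.92 to 0.45.

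Insm1 is a zinc-finger repressor of endocrine progenitors that binds Kdm1a and the CoREST complex through its SNAG domain. Insm1 (ENSMUSG00000068154, chr2:146221921-146225020) had 3.55, 2.79 and 3.07 CPM in C1, C3 and C3-3 and 2.92, 4.11 and 2.13 CPM in H1, H5 and H9. As for Neurog3, Hdac1/2-deleted mice held both ends of the range, here with H5 at the top. The log2 fold change of Insm1 was -0.04 (SE 0.30, adjusted p = 0.92), and its interval ran from -0.73 to 0.64.

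Nkx2-2 is a homeodomain factor that acts with Groucho (Tle) corepressors in the choice of endocrine subtype. Nkx2-2 (ENSMUSG00000027434, chr2:147177546-147194243) was present at 2.33, 2.03 and 1.20 CPM in C1, C3 and C3-3 and at 1.75, 1.84 and 1.48 CPM in H1, H5 and H9. All 3 Hdac1/2-deleted mice lay inside the control range, which C3-3 extended downward. The log2 fold change was -0.14 (SE 0.33, adjusted p = 0.77), with an interval from -0.88 to 0.61.

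Since bHLH factors bind the E-box CANNTG, the promoters of these bHLH genes are shown with that of Nkx2-2, picked with the motif counts known and holding the most, as RefSeq gives them on GRCm38.p6, each as the 250 bases before the start site, 5′ to 3′, with every CANNTG in capitals.
Neurog3 (chr10:62132840-62133089, plus strand): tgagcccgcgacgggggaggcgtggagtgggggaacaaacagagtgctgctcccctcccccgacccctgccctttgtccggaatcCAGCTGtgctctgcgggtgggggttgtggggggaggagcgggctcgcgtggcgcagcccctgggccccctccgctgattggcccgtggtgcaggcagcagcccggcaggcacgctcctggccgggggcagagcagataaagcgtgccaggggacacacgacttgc
Neurod1 (chr2:79456637-79456886, minus strand): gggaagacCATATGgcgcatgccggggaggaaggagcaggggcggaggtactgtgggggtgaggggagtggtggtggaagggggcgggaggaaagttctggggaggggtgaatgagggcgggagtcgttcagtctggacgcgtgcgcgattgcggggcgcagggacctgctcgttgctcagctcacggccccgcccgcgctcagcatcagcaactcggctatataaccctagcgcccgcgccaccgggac
Nkx2-2 (chr2:147186403-147186652, minus strand): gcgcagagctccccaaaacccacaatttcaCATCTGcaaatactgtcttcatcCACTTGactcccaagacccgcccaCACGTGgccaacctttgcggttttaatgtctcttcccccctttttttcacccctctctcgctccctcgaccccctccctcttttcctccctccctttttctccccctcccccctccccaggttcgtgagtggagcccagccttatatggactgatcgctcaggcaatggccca
The Neurog3 and Neurod1 windows each hold 1 CANNTG and the Nkx2-2 window holds 3, of which 1 is CAGATG (read here on the other strand as CATCTG), the form preferred by Neurog and Neurod factors. Both strands were searched, and CAGATG is a case of CANNTG. RefSeq promoters were found for 7 of 9 factors, in 8 windows because Pax6 has 2, and not for Pax4 and Insm1. CANNTG was found in 5 of these 8 windows, not in those of Fev and Rfx6 and 1 of Pax6, and in 66.2% of all 32851 promoter windows of this length, and CAGATG in 1 of 8 and in 14.4%. The letters describe the windows only, and binding was not tested. The GC content of the Neurog3 window was 71.2%, that of the Neurod1 window 67.6% and that of the Nkx2-2 window 56.4%.

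Pax4, a paired-domain factor that serotonin and somatostatin cells of the gut require, was among the factors with fewest counts. Pax4 (ENSMUSG00000029706, chr6:28442334-28449353) gave 0.498, 0.558 and 0.433 CPM in C1, C3 and C3-3 and 0.472, 0.342 and 0.276 CPM in H1, H5 and H9, from 13 to 35 counts per library. H1 lay inside the control range and H5 and H9 below it. The log2 fold change was -0.44 (SE 0.40, adjusted p = 0.41), and the interval from -1.34 to 0.46 includes a 2-fold decrease.

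Fev is an ETS-domain factor best known from serotonin neurons and also found in endocrine progenitors. Fev (ENSMUSG00000055197, chr1:74881509-74885419) reached 2.16, 1.39 and 1.99 CPM in C1, C3 and C3-3 and 1.38, 3.00 and 2.18 CPM in H1, H5 and H9. H5 was above all other mice, while H1 and C3 were lowest at almost the same level. Fev was the only factor of the 9 with a positive log2 fold change, 0.23 (SE 0.36, adjusted p = 0.64), with an interval from -0.58 to 1.05, and without H5 it was -0.05.

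Rfx6, a winged-helix factor needed for peptide hormone cells, varied more among Hdac1/2-deleted than among control mice. Rfx6 (ENSMUSG00000019900, chr10:51677756-51730432) was found at 1.16, 1.08 and 0.979 CPM in C1, C3 and C3-3 and at 1.32, 0.711 and 0.862 CPM in H1, H5 and H9. The 3 control mice lay within a narrow range, with H1 above it and H5 and H9 below it. The log2 fold change was -0.14 (SE 0.35, adjusted p = 0.77), with an interval from -0.94 to 0.65.

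Pax6, a paired-domain and homeodomain factor of later endocrine cells that acts on the proglucagon and Gip genes, was the only factor whose groups did not overlap. Pax6 (ENSMUSG00000027168, chr2:105668900-105697364) was measured at 0.845, 0.720 and 0.828 CPM in C1, C3 and C3-3 and at 0.661, 0.316 and 0.536 CPM in H1, H5 and H9. All Hdac1/2-deleted mice were below all control mice, and H5, the mouse with fewest total counts, was lowest with 12 counts of Pax6. Groups that do not overlap were found for 53.2% of all genes tested, and for Pax6 the groups overlapped when libraries were scaled by their totals alone. The log2 fold change was -0.64 (SE 0.39, adjusted p = 0.22), with an interval from -1.52 to 0.24.

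Isl1 is a LIM-homeodomain factor of hormone-producing cells, required for those that make Gip, Gcg, Cck and Sst. Isl1 (ENSMUSG00000042258, chr13:116298281-116309689) was at 0.785, 0.522 and 1.32 CPM in C1, C3 and C3-3 and at 0.621, 0.527 and 0.358 CPM in H1, H5 and H9. C3-3 stood above all other mice, H1 and H5 lay inside the control range, and H9 was lowest. Its log2 fold change of -0.80 (SE 0.45, adjusted p = 0.19) was the most negative of the 9, and the interval from -1.82 to 0.22 was the widest. Without C3-3 the log2 fold change of Isl1 was -0.37, and without C1 and C3 it was -1.38 (adjusted p = 0.1).

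Read together, the intervals show which changes the 6 libraries could leave undetected. For 5 of 9 factors (Neurog3, Neurod1, Insm1, Nkx2-2 and Rfx6) the 95% interval lay within a 2-fold change both ways. The interval excluded a 2-fold increase for 8 of 9 factors, all but Fev, and a 2-fold decrease for 6 of 9, all but Pax4, Pax6 and Isl1. These intervals are per gene, without adjustment over genes. The count of 5 rests on all 6 mice: it was 1 without H1, 2 without H5, 4 without H9, 4 without C1, 3 without C3 and 1 without C3-3.

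**Figure D2:**
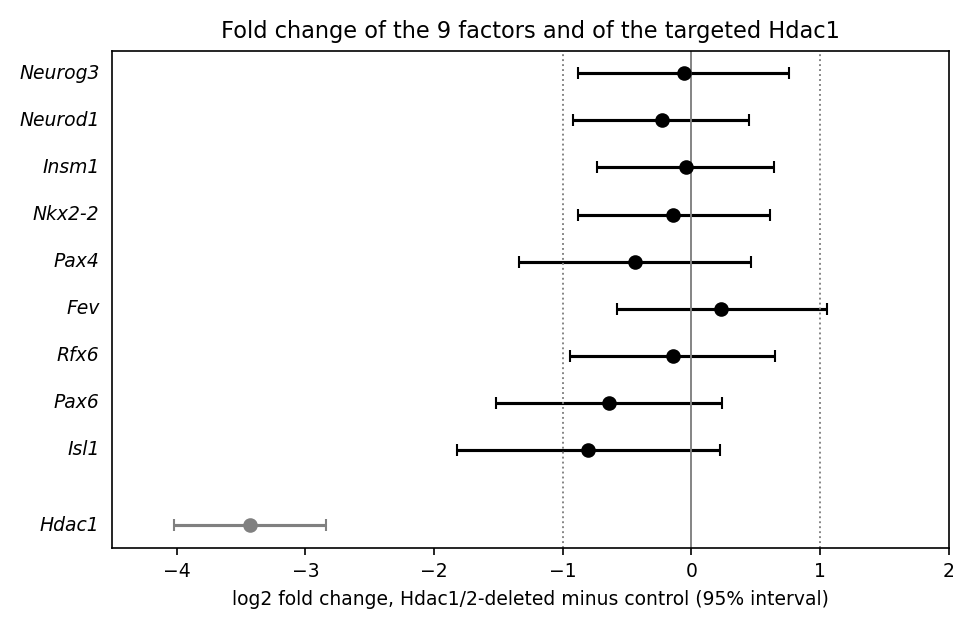
Log2 fold change (horizontal axis, Hdac1/2-deleted minus control) of the 9 factors and of the targeted gene Hdac1, with bars for the 95% interval and dotted lines at a 2-fold change. Every factor's interval includes 0, while that of Hdac1 runs from -4.02 to -2.84.

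Compared per length, as CPM per kb of annotated exon, the control means fell in the order Neurog3 at 1.33, Fev at 1.14, Insm1 at 1.01, Neurod1 at 0.846, Nkx2-2 at 0.645, Pax4 at 0.344, Rfx6 at 0.268, Isl1 at 0.221 and Pax6 at 0.0682 CPM per kb. Neighbours from Neurog3 down to Nkx2-2 had overlapping ranges over the 3 control mice, as had Rfx6 and Isl1. Ranges were separate between Nkx2-2 and Pax4, between Pax4 and Rfx6 and between Isl1 and Pax6. In Hdac1/2-deleted mice Fev led at 1.35 ± 0.502 CPM per kb and Neurog3 followed at 1.28 ± 0.534 (SD, n = 3), with overlapping ranges, and the order of the 7 other factors was the same as in control mice. The place of Pax6 depends on its annotated exon length of 11694 bases, the sum over all its transcripts.

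**Figure D3:**
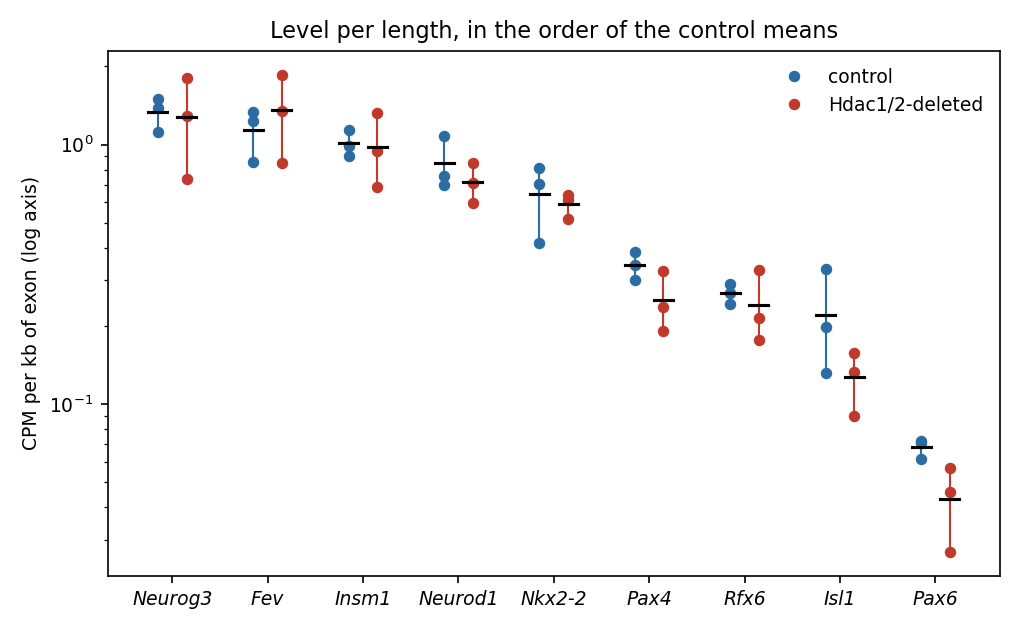
Level of each factor in CPM per kb of exon (vertical log axis) in each control (blue) and Hdac1/2-deleted (red) mouse, with lines for the range and black bars for the mean, in the order of the control means. Control means run from 1.33 for Neurog3 to 0.0682 CPM per kb for Pax6.

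Summed over the 9 factors, the level was 16.8, 12.9 and 14.2 CPM in C1, C3 and C3-3 and 14.5, 15.0 and 10.7 CPM in H1, H5 and H9. H9 had the lowest level of 5 of 9 factors and the highest of none (0 of 9), while C1 had the highest of 3 and the lowest of none (0 of 9). The same mice thus held the extremes of several factors. Measured by the root mean square difference of log2 CPM, each centred on its own mean over the 6 libraries, the pattern of Neurod1 differed from that of Neurog3 by 0.26, that of Insm1 and Pax4 by 0.31 and that of Fev by 0.62. Of all genes tested, 1.14% were as near to Neurog3 as Neurod1 was, and 54.7% were as near as Fev.

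The 3 genes with patterns nearest to Neurog3 over the 6 libraries were Ephb3, at a difference of 0.09, Lgals12 at 0.11 and Nde1 at 0.12. Ephb3, an ephrin-B receptor of crypt cells, had 7.47, 4.99 and 6.77 CPM in C1, C3 and C3-3 and 7.36, 5.90 and 3.43 CPM in H1, H5 and H9. Like Neurog3 it was low in H9, with C3 the lowest control mouse. Lgals12 encodes a galectin and Nde1 a dynein-binding protein of the centrosome.

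Some factors share annotated bases with other genes, and the strand setting of the counts is not given in the sources used here. Neurog3 lies inside the span of Fam241b on the other strand and shares 273 exonic bases with it. Fam241b had 15.6 to 19.4 CPM in control mice and 21.5 to 24.6 CPM in Hdac1/2-deleted mice (log2 fold change 0.42, adjusted p = 0.06, not called), far more counts than Neurog3, so that the Neurog3 counts are uncertain to this extent. Neurod1 shares 201 exonic bases with Cerkl on the same strand, which had at most 0.310 CPM in any library. Neurod1 shares a further 154 with Gm26755 and Nkx2-2 shares 278 with Nkx2-2os, both on the other strand and not analysed here. Pax6os1 and 6430503K07Rik overlap the spans of Pax6 and Nkx2-2 but 0 of their exonic bases, and Pax6os1 had at most 8 counts in any library.

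Among other transcription factors known from gut or pancreatic endocrine cells, 17 of 18 listed genes were tested, 3 were increased and 14 not called, and the median on the log2 scale was 0.29 against -0.01 over all genes tested. Prox1, a homeodomain factor, was measured at 1.31, 1.67 and 1.49 CPM in C1, C3 and C3-3 and at 8.03, 8.50 and 9.75 CPM in H1, H5 and H9, a log2 fold change of 2.55 (SE 0.24, adjusted p = 7.3e-05). Hhex, which somatostatin cells of the islet require, rose by 1.95 on the log2 scale (SE 0.41, adjusted p = 0.0052), from 0.438 to 0.847 CPM in control mice to 1.54 to 3.26 CPM. Scrt1, a zinc-finger repressor of neural and endocrine cells, had 1 count over the control libraries and 83 over the Hdac1/2-deleted libraries (adjusted p = 0.0012), a ratio of 83.6 with a counting interval from 14.6 to 3343. Pdx1, first of the list by its mean over all 6 libraries though not in control mice, ranged from 1.72 to 9.47 CPM in control mice and from 7.69 to 13.7 CPM in Hdac1/2-deleted mice (adjusted p = 0.21). Whether the 9 lineage factors differ from this list was not tested.

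Upstream of Neurog3 stand the genes of secretory fate and Notch signalling, of which 15 of 16 were tested, 4 were increased and 11 not called. Their median on the log2 scale was 0.10. The Notch ligand gene Jag2 went from 1.30 to 2.58 CPM in control mice to 42.9 to 48.2 CPM in Hdac1/2-deleted mice (log2 fold change 4.63, adjusted p = 7.1e-06). Hes6, first of the list by its mean over all 6 libraries though not in control mice, rose by 1.83 on the log2 scale (adjusted p = 2.4e-05), and Jag1 by 1.10 (adjusted p = 0.023). Hes5, a Notch target and repressor, had 0 counts in all control mice and 51 over the Hdac1/2-deleted mice (adjusted p = 0.0013). Against a floor of 3 counts per control library it was at least 5.84-fold higher, and the list's median is 0.10 also with Hes5 at that bound. Atoh1, the bHLH factor of all secretory cells, stood at 17.2, 11.4 and 14.9 CPM in control mice. In H1, H5 and H9 it stood at 9.72, 9.14 and 6.05 CPM. Its log2 fold change of -0.81 (adjusted p = 0.026) was under 2-fold. So were those of Gfi1 (-0.81, adjusted p = 0.042), Dll1 (-0.65, adjusted p = 0.033) and Dll4 (0.80, adjusted p = 0.044). Hes1 had a mean of 16.2 CPM in control and 17.3 CPM in Hdac1/2-deleted mice and was not called (adjusted p = 0.78).

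Downstream, 7 of 12 hormone genes were called, 3 increased and 4 decreased, and the median over the 12 was -0.83 on the log2 scale. Sct had 36.8 to 53.9 CPM in control and 569 to 798 CPM in Hdac1/2-deleted mice. Sst had 64.4 to 81.3 CPM in control and 3.12 to 5.82 CPM in Hdac1/2-deleted mice. The other called hormones had log2 fold changes of 2.31 (Iapp), 1.27 (Tac1), -1.27 (Gip), -1.28 (Gcg) and -1.33 (Nts). Chga, the general marker of endocrine granules, was at 140, 113 and 125 CPM in control mice and 95.6, 150 and 138 CPM in H1, H5 and H9, and Chgb at 219 to 260 and 287 to 391 CPM. Of 20 genes of endocrine granules and amine handling, 2 were increased, 2 decreased and 16 not called, and the median on the log2 scale was -0.50. Vgf rose by 2.22 (adjusted p = 0.0025) and Cpe by 1.31 (adjusted p = 9.8e-04) on the log2 scale, while Rgs4 fell by 2.42 (adjusted p = 0.0016) and Pcsk1, the prohormone convertase, fell by 1.78 (adjusted p = 0.0011).

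**Figure D4:**
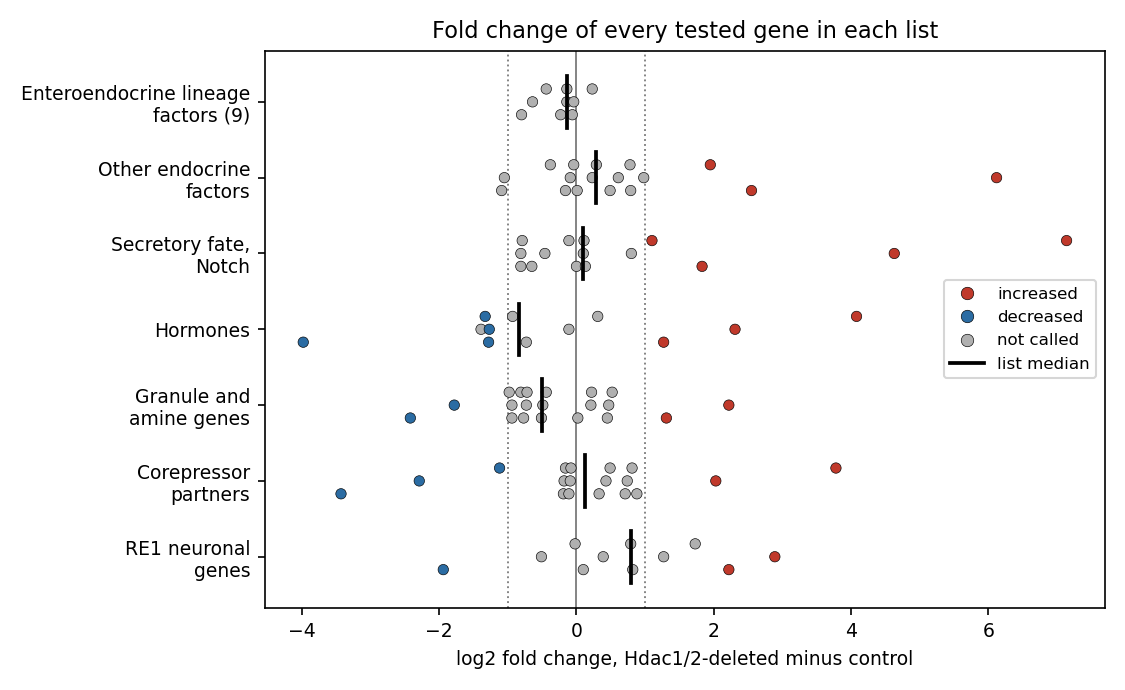
Log2 fold change (horizontal axis) of every tested gene in the 9 lineage factors and in 6 related gene lists, with genes called increased in red, decreased in blue and not called in grey, black bars for list medians and dotted lines at a 2-fold change. The points of the 9 lineage factors lie between -0.80 and 0.23, and the other lists hold called genes.

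Corepressor partners of Hdac1 and Hdac2 were looked at because endocrine and neuronal genes are known targets of the REST and CoREST complexes. Of 18 genes tested, 2 were increased and 3 decreased, Hdac1 among the latter, and the median on the log2 scale was 0.13. Rcor2, a CoREST subunit, was at 1.36, 0.702 and 1.15 CPM in control mice and at 15.3, 17.4 and 11.6 CPM in H1, H5 and H9 (log2 fold change 3.78, adjusted p = 4.0e-05). Tle2, a Groucho corepressor, rose by 2.03 on the log2 scale (adjusted p = 0.0027), while Gfi1b fell by 2.29 (adjusted p = 0.023) and Phf21a fell by 1.12 (adjusted p = 9.9e-04). Gfi1b counts were low, at 17, 40 and 22 in C1, C3 and C3-3 and 2, 6 and 7 in H1, H5 and H9. Hmg20b, with the highest mean over all 6 libraries though not in either group alone, was not called (adjusted p = 0.082), and Rest itself ranged from 9.47 to 12.7 CPM in control and from 10.6 to 20.7 CPM in Hdac1/2-deleted mice (adjusted p = 0.16). Of 11 tested neuronal genes with a REST site, 2 were increased (Celf4 by 2.89 and Vgf) and 1 decreased (Chrnb2 by 1.94 on the log2 scale), with a median of 0.79.

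Neurons and pancreatic islet cells also make some of these factors, and their markers were looked at for this. Of 7 islet markers only Mafa is listed, at no more than 0.132 CPM in any library. Of 11 enteric neuron markers 9 are listed and 4 were tested, with Elavl4 and Vip not listed and Phox2a at no more than 0.0906 CPM. The summed level of the neuron markers was 6.76, 6.46 and 3.82 CPM in C1, C3 and C3-3 and 11.1, 11.7 and 9.07 CPM in H1, H5 and H9, most of it from Ret, which had 2.95 to 4.61 CPM in control and 5.53 to 8.30 CPM in Hdac1/2-deleted mice (log2 fold change 0.78, adjusted p = 0.044, under 2-fold). Tubb3 was increased, by 2.81 on the log2 scale (adjusted p = 0.001), while Prph (mean 0.479 CPM in control and 0.710 CPM in Hdac1/2-deleted mice) and Uchl1 (0.376 and 0.217 CPM) were not called. Other markers did not follow the sum: Chat had 10, 10 and 9 counts in C1, C3 and C3-3 and 1, 0 and 0 in H1, H5 and H9 but also marks tuft cells, most of whose other markers fell, and the means of Nos1 (0.159 and 0.0262 CPM), Gap43 (0.0693 and 0.0262 CPM) and Phox2a were also lower in Hdac1/2-deleted mice, with overlapping groups. Elavl3 had at most 0.211 CPM, and these 5 had too few counts to be tested. Of 6 enteric glia markers 4 are listed, with a sum of at most 0.796 CPM and S100b first by mean over all 6 libraries. The part of such cells in the levels of the 9 factors was not tested.

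Smooth muscle genes set C1 and C3 apart. Of 12 stromal and endothelial markers, 10 were tested, 1 was increased and 4 decreased, and their summed level was 67.4, 46.7 and 7.79 CPM in C1, C3 and C3-3 and 14.2, 23.9 and 20.6 CPM in H1, H5 and H9. Myh11 stood at 25.4 and 12.6 CPM in C1 and C3, at 0.452 CPM in C3-3 and at no more than 0.0135 CPM in Hdac1/2-deleted mice, and Des and Acta2 were likewise high only in C1 and C3. Pdgfrb, with the highest mean over all 6 libraries though not in control mice, rose by 3.00 on the log2 scale (adjusted p = 0.001). Without C1 and C3 the count of factors called was again 0 of 9, while 1 factor, Isl1, had an unadjusted p under 0.05, and the median log2 fold change of the 9 was -0.06. C3 was also the only mouse with many counts of Y-linked genes (3082 counts over Ddx3y, Eif2s3y, Kdm5d and Uty against 1 to 13 in the other mice), and without it 0 of 9 factors were called.

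As a check of the epithelial label, Vil1, the epithelial marker with the highest mean, was at 3394 to 4686 CPM in control and 2664 to 3542 CPM in Hdac1/2-deleted mice, and of 8 such markers Krt18 was increased (by 1.02 on the log2 scale, adjusted p = 5.9e-04) and 7 were not called. Among those not called, Epcam (log2 fold change -0.62, adjusted p = 0.017) and Krt20 (-0.57, adjusted p = 0.032) were lower in Hdac1/2-deleted mice by less than 2-fold. All 7 Paneth markers were decreased, with a median of -4.11 on the log2 scale and Lyz1 first by mean over all 6 libraries, and their summed level was 5274, 3286 and 3540 CPM in C1, C3 and C3-3 and 273, 280 and 181 CPM in H1, H5 and H9. Of 7 stem markers 3 were decreased, Olfm4 had the highest mean in each group, and the sum was 549, 434 and 431 CPM in control mice and 273, 227 and 159 CPM in H1, H5 and H9. C1 was highest and H9 lowest in both sums, as in the sum of the 9 factors. The sum of the hormone genes ran the other way, lowest in C1 (370 CPM) and highest in H9 (986 CPM). Sct alone made up 37.1 CPM of that sum in C1 and 798 CPM in H9. The median of the 12 hormone genes was negative, at -0.83 on the log2 scale. Of 7 goblet markers 3 were decreased, with Fcgbp highest by mean and sums of 18426, 19900 and 21045 CPM in control mice and 6568, 13666 and 9478 CPM in H1, H5 and H9. Of 6 tested tuft markers 4 were decreased and 1, Trpm5, with the highest mean, increased. Their median on the log2 scale was -2.13, with Dclk1 at -4.40, Sh2d6 at -4.17 and Avil at -2.70, and Trpm5 made up 22.4, 23.5 and 28.7 CPM of the sums in H1, H5 and H9, which hide the fall of the rest. The sums were 21.3, 45.9 and 29.3 CPM in control mice and 26.0, 26.5 and 32.9 CPM in H1, H5 and H9. Of 11 tested immune markers 2 were increased (Cd4 and Csf1r) and 1, Cd8a, was decreased (log2 fold change -1.32, adjusted p = 0.038). The groups overlapped for Cd8a, with 18.1, 55.9 and 44.3 CPM in C1, C3 and C3-3 and 11.2, 17.6 and 18.6 CPM in H1, H5 and H9. Cd8a had the highest mean over all 6 libraries, though not in Hdac1/2-deleted mice, where Mcpt1 was higher. The sums were 45.5, 135 and 107 CPM in control mice and 47.9, 64.7 and 133 CPM in H1, H5 and H9. Mcpt1, not called, made up 1.43, 14.6 and 7.02 CPM of them in C1, C3 and C3-3 and 5.93, 11.3 and 55.9 CPM in H1, H5 and H9. The part of these cells in the levels of the 9 factors was not tested.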

How the data were processed

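Poly(A) RNA of jejunal IEC was made into directional libraries. For alignment the authors used STAR (2.4.0f1 in the submitters' processing notes, with bcl2fastq 1.8.4) and they deposited whole-number counts of reads per gene, without normalization. The paper names GRCm38 as the build and the submitters' notes name an older one. The counting program, annotation and strand setting are not given in the sources used here. The deposited table also holds a score per library, close to the counts times a library factor (least so in H5), and the authors' fold changes and p-values of their own comparison. Neither was used.

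Counts were fitted with edgeR 4.0.16 (limma 3.58.1, R 4.3.3): filterByExpr (minimum count 10, minimum total 15), TMM, robust quasi-likelihood test, prior count 0.125, no covariates, and Benjamini-Hochberg adjustment over the 15618 genes kept. The standard error is the log2 fold change divided by the root of F, and the 95% interval uses the t distribution with the fit's degrees of freedom. TMM factors ranged from 0.892 to 1.14. A floor of 3 counts corresponds to 0.0405 to 0.0790 CPM. Intervals from counts and floors cover counting error only. With 3 mice in each group, 0.10 is the smallest p of an exact two-sided permutation test. DESeq2 1.42.0 served as an alternative, and plots were drawn with matplotlib 3.10.9 in Python 3.11.15. The steps were tested on simulated data. Every pair of libraries within a group differed by more than sampling noise (chi-square per degree of freedom 91.6 to 244). Genes were followed by identifier. Positions, exon lengths and overlaps came from GENCODE M21 on GRCm38 and promoters from RefSeq on GRCm38.p6.

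The 9 factors and the gene lists were chosen with earlier results of these data known. Named were all 9 factors, Hdac1 and Hdac2, called hormones, chromogranins, the 3 patterns nearest to Neurog3 and genes overlapping a factor. Of the related lists, up to 3 called genes of largest change and the gene with the highest mean CPM over all 6 libraries were named. The exception was Syp, which had that mean among the neuronal genes with a REST site and is not described. Jag1, Atoh1, Cpe, Tle2, Phf21a, Rest, Mcpt1, the other neuron markers and the undetected markers were named after their values were seen, as were the Y-linked genes. The same holds for Hes1, Gfi1, Dll1, Dll4, Epcam and Krt20. The neuron list as first written had 1 more marker, which is not reported here. The alternatives changed the scaling, the test, the filter, the prior count and the limits of a call, and left out each mouse.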

Additional observations from a re-analysis of the deposited data

How the results depend on the processing

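Under all 14 alternatives tried for these counts, including 1 chosen after seeing the data (without C1 and C3), edgeR or DESeq2 called 0 of 9 factors increased and 0 of 9 decreased. Without the 2-fold limit, 3198 genes were increased and 3168 decreased, against 1944 and 1990 with it, because the rule is wider. With libraries scaled by their totals alone, 2463 genes were increased and 1538 decreased, and the median of all genes tested moved to 0.18. Relative to that shift the median of the 9 factors was -0.13, but as fitted the log2 fold change turned positive for Neurog3 (0.14), Insm1 (0.14), Nkx2-2 (0.05) and Rfx6 (0.05). Without C1 and C3, a fit in which C3-3 is assumed to vary like the other group, it was 0.50 for Nkx2-2 and 0.00 for Insm1 and Rfx6. With each mouse left out in turn, it ranged from -0.40 to 0.23 for Neurog3, from -0.31 to 0.16 for Insm1, from -0.36 to 0.07 for Nkx2-2, from -0.44 to 0.03 for Rfx6 and from -0.05 to 0.49 for Fev. The cause of these changes of sign was not tested. Neurod1, Pax4, Pax6 and Isl1 were negative under every alternative. In fits with more than 1 mouse in each group their lowest adjusted p was 0.11, for Isl1 without C3. With single mice left out, the log2 fold change ran from -0.37 to -0.01 for Neurod1 and from -0.68 to -0.26 for Pax4. It ran from -0.88 to -0.41 for Pax6 and from -1.05 to -0.37 for Isl1. No paired analysis was possible because the groups share no replicate labels. With 12 to 235 counts per factor and library and 3 mice per group, a change under 2-fold lay within the interval of every factor. A 2-fold decrease lay within those of Pax4, Pax6 and Isl1, and a 2-fold increase within that of Fev.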
